A study of Arabidopsis thaliana with 2 samples.

Results

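The phosphate starvation response genes described here are 10 Arabidopsis thaliana loci chosen by their identifiers out of 26743 features in the table of levels. They are the phosphate transporter genes PHT1;1 and PHT1;4, the acid phosphatase gene PAP17, the regulator genes SPX1, SPX2 and SPX3, the pyrophosphatase gene PS2 and the lipid synthesis genes MGD3, SQD1 and SQD2. RNA sequencing compared whole seedlings of the wild type (WT) with seedlings of jmj17-1, a mutant of JMJ17, which is a demethylase of lysine 4 on histone H3. Both genotypes were in the Col-0 background, and seedlings were 7 days old after growth on 1/2MS plates without sucrose in days of 16 h light and 8 h dark. There was 1 library per genotype, from total RNA of whole seedlings, and no source used here gives the kind or place of the jmj17-1 mutation. With 1 library each, no difference has a replicate check, and every value describes these 2 libraries.

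A plant short of phosphate takes up more of it, frees it from organic molecules and replaces membrane phospholipids with lipids that hold no phosphorus. Many genes of this response are switched on by the MYB factor PHR1, which binds a DNA motif called P1BS. When phosphate is ample, inositol pyrophosphates accumulate and hold SPX proteins against PHR1, which keeps it off its targets. MS salts include phosphate and the labels name no phosphate treatment, so these levels were read without deliberate starvation.

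The level of each gene is given in RPKM, which scales the reads of a feature to its length in kilobases and to a library of 1000000 reads, as calculated by the authors. The reads behind these values could be worked out from the deposited decimals, at 53890006 reads in WT and 45403267 in jmj17-1. For 8 of the 10 genes the values resolved into whole reads and a whole feature length, and for the 2 others, PHT1;1 and PAP17, read numbers are approximate and use the RefSeq transcript length. Intervals below are 95% intervals from exact methods and cover counting error only, not the spread between seedlings. Where reads are approximate, as for PHT1;1 and PAP17, the interval is approximate too. JMJ17 (AT1G63490) had 5.48 RPKM in WT and 2.90 RPKM in jmj17-1, from 1389 and 619 reads, a ratio of 0.529 with an interval of 0.480 to 0.582.

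The stretches of promoter below are shown because PHR1 acts through P1BS, searched here as GNATATNC, which reads the same on both strands. The search covered 1000 bases before the annotated start of each gene in the TAIR10.1 genome. Each site is printed 5′ to 3′ on the strand of its gene with 12 bases on either side where capitals mark the motif.
PHT1;1 at chr5:17402925-17402956, minus strand: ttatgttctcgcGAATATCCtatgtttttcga
PHT1;1 at chr5:17402907-17402938, minus strand: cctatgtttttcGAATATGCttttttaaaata
SPX1 at chr5:6801535-6801566, plus strand: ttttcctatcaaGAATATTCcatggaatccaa
SPX3 at chr2:18606185-18606216, plus strand: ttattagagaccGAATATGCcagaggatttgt
SPX3 at chr2:18606308-18606339, plus strand: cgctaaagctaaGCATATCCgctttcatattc
PS2 at chr1:27466931-27466962, minus strand: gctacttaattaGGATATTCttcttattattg
PS2 at chr1:27466546-27466577, minus strand: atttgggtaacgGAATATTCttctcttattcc
SQD2 at chr5:90438-90469, minus strand: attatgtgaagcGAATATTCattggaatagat

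Of the 10 genes, 5 held the motif within 1000 bases and 2 of them, SPX3 and PS2, within 250 bases. Over 27443 protein-coding genes 20.3% held it within 1000 bases and 5.46% within 250. The other 5 genes, PHT1;4, PAP17, SPX2, MGD3 and SQD1, had no match to these letters in the window searched, which says nothing of the factor itself. A match is a run of letters and was not measured as a bound site.

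PAP17 and PHT1;4 had the highest ratios of jmj17-1 over WT, 1.84 and 1.46. SPX3, at 9 and 10 reads, had a ratio of 1.32, and the other 7 genes lay between 0.934 and 1.20. None was 2-fold higher or lower in jmj17-1 on the log2(RPKM + 1) scale, where an added 1 RPKM understates the change of low genes. Over the 18969 features with a mean of at least 1 RPKM, 0.39% passed the 2-fold rule upward and 0.58% downward. PAP17 alone was at least 1.5-fold higher and no gene was 1.5-fold lower, against 1.51% and 1.93% of all features. Of the 10 genes 9 reached the mean of 1 RPKM, and SPX3 did not. Among these 9, 6 had a log2 ratio above 0 and 3 below, and their median was 0.14, or 0.11 over all 10. The median of all features was 0.04, with 60.5% of them above 0.

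**Figure D1:**
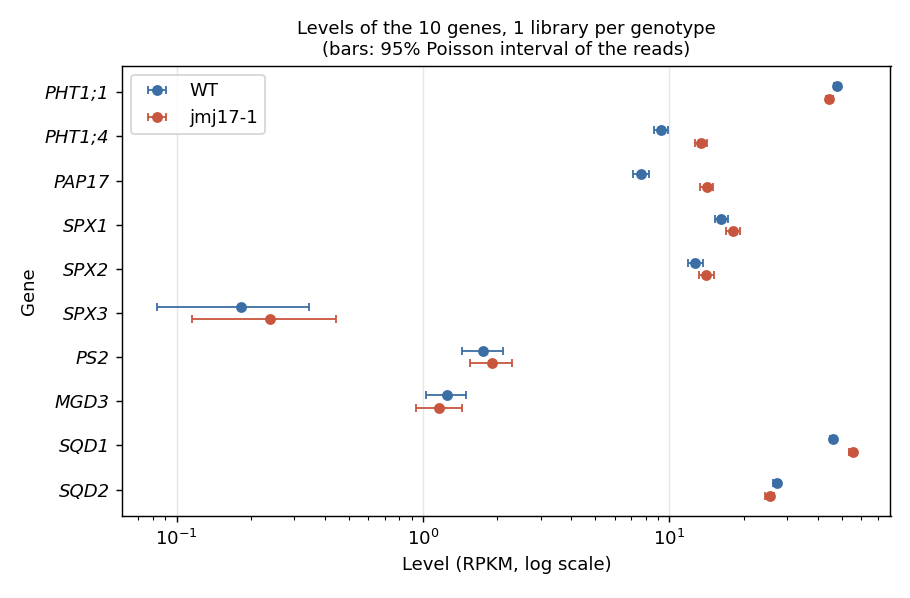
Level of each of the 10 genes in RPKM on a log axis, in the WT library (blue) and the jmj17-1 library (red), with bars for the 95% Poisson interval of the reads. SPX3, PS2 and MGD3 lie far below the other genes in both libraries, and the points of PAP17 are the farthest apart on the log axis, at a ratio of 1.84.

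PHT1;1 and PHT1;4 are plasma-membrane transporters that bring phosphate into the root. PHT1;1 (AT5G43350, chr5:17399769-17402158, minus strand, 3 exons) had 47.8 RPKM in WT and 44.6 RPKM in jmj17-1. It was among the most abundant of the 10 genes, with 91.2% of features below it in WT. The ratio was 0.934 with an interval of 0.896 to 0.974, and the log2 ratio was -0.10. About 5177 and 4075 reads lay behind these values. PHT1;4 (AT2G38940, chr2:16257157-16260253, plus strand, 2 exons) had 9.22 RPKM in WT and 13.4 RPKM in jmj17-1. Its ratio was 1.46 with an interval of 1.34 to 1.59, from 944 and 1160 reads. This log2 ratio of 0.50 was the second highest of the 10 and lay short of the 1.5-fold rule, and 2.05% of all features analysed had a ratio at least as high. The transporters thus stood on opposite sides of 0, and their counting intervals did not overlap.

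PHT1;1 belongs to a cluster on chromosome 5 with near-identical neighbours, and how the authors' counting split reads among such copies is unknown. Its transcript was 97.7% identical to that of PHT1;2 over 1577 aligned bases and 90.2% identical to that of PHT1;3 over 1558. PHT1;2 had 0.342 RPKM in WT and 0.372 RPKM in jmj17-1. PHT1;3 stood at 0.0119 RPKM in WT and was listed at 0 in jmj17-1. Summed over the 3 genes, the level was 48.1 RPKM in WT and 45.0 in jmj17-1, a log2 ratio of -0.09, so PHT1;1 made up nearly all of the sum. The closest relative of PHT1;4 was PHT1;7, at 81.6% identity over 1607 bases, which stood at 0.0113 RPKM in WT and was listed at 0 in jmj17-1.

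The rest of the PHT1 family was barely present in either library. PHT1;5 had 0.149 RPKM in WT and 0.241 RPKM in jmj17-1, from 14 and 19 reads, with a counting interval of the ratio of 0.766 to 3.47. PHT1;8 had 5 and 2 reads and PHT1;9 had 27 and 19. PHT1;6 was not in the table of levels. PHF1, which helps PHT1 proteins leave the endoplasmic reticulum, was well above these, with 16.0 RPKM in WT and 19.2 RPKM in jmj17-1.

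PAP17 encodes a purple acid phosphatase, an enzyme that releases phosphate from organic esters and is a common marker of phosphate starvation. PAP17 (AT3G17790, chr3:6089381-6091231, plus strand, 3 exons) had 7.70 RPKM in WT and 14.2 RPKM in jmj17-1. The jmj17-1 library was the higher one, and the intervals of the levels, 7.14 to 8.30 and 13.3 to 15.0 RPKM, did not overlap. The ratio was 1.84 with an interval of 1.67 to 2.03, or about 688 reads against 1065. The log2 ratio of 0.80 was the highest of the 10, and 0.764% of all features analysed, 145 in number, had a ratio at least as high. PAP17 shares 122 exon bases with AT3G17800 on the opposite strand, and since no source says whether counting used strand, reads of both genes may be mixed there. AT3G17800 had 33.9 RPKM in WT and 32.2 RPKM in jmj17-1, a log2 ratio of -0.07. No transcript of another gene reached 75% identity with PAP17 over 200 bases.

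Other purple acid phosphatase genes were also measured, to place PAP17 in its family. Of 9 others listed, 8 were in the table and 4 reached a mean of 1 RPKM. All 4 had a log2 ratio above 0, as did 60.5% of all features, and none was 1.5-fold higher once 1 RPKM was added. PAP10, a root-surface acid phosphatase, had 24.996 RPKM in WT and 36.2 RPKM in jmj17-1, a ratio of 1.45 with an interval of 1.37 to 1.53, and overlaps AT2G06625 on the opposite strand by 177 exon bases. PAP10 was the nearest to PAP17 in ratio among the abundant relatives. PAP12, a secreted phosphatase, stood at 22.9 and 27.4 RPKM, a ratio of 1.20. PAP26, the main vacuolar and secreted acid phosphatase, was the most abundant of the class at 69.7 and 72.8 RPKM, a ratio of 1.04. PAP1 (AT1G13750), named after its value was seen, stood at 3.07 and 4.72 RPKM, a ratio of 1.54. The 5 analysed genes of the class, PAP17 included, had a median log2 ratio of 0.49. The 4 low genes of the class, PAP14, PAP22, PAP24 and PAP25, were all lower in jmj17-1, at 0.484 and 0.240 RPKM, 0.753 and 0.641, 0.163 and 0.125, and 0.0397 and a listed 0. These rest on at most 67 reads in a library.

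**Figure D2:**
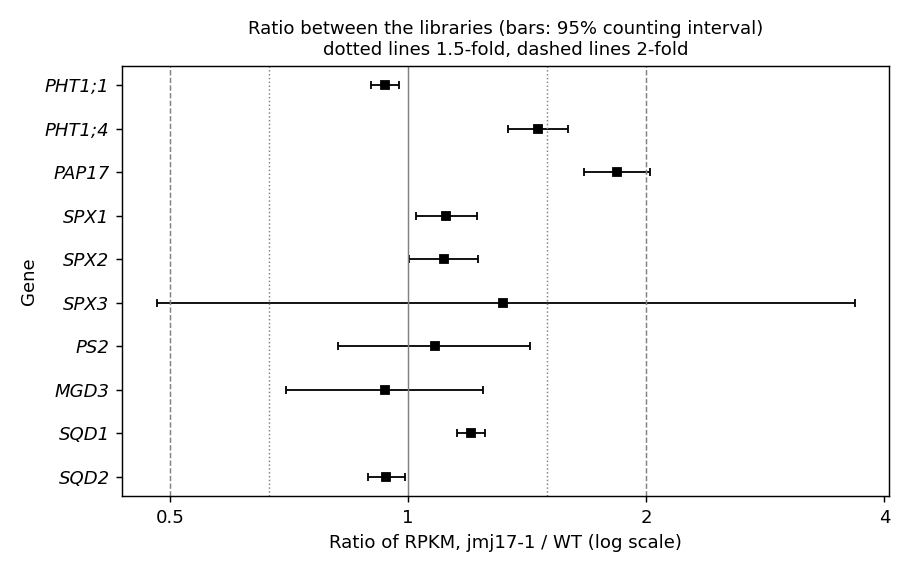
Ratio of RPKM in jmj17-1 over WT for each of the 10 genes on a log axis, with bars for the 95% counting interval. Dotted lines mark 1.5-fold and dashed lines 2-fold, and the bars of PHT1;1 and PAP17 rest on approximate reads. PAP17 at 1.84 lies beyond the dotted line, PHT1;4 at 1.46 lies just inside it, and the wide bar of SPX3 rests on 9 and 10 reads.

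SPX1 and SPX2 are nuclear proteins that bind PHR1 and restrain it. SPX1 (AT5G20150, chr5:6802282-6803655, plus strand, 3 exons) had 16.3 RPKM in WT and 18.2 RPKM in jmj17-1, from 1018 and 959 reads. SPX2 (AT2G26660, chr2:11338752-11340950, plus strand, 3 exons) had 12.8 RPKM in WT and 14.1 RPKM in jmj17-1, from 804 and 751 reads. Both genes were slightly higher in jmj17-1 by nearly the same factor. The ratio was 1.12 for SPX1 with an interval of 1.02 to 1.22, and 1.11 for SPX2 with an interval of 1.00 to 1.23. Of 8 genes commonly used as references, 7 had a log2 ratio above 0, with a median of 0.11 and plain ratios from 0.956 for YLS8 to 1.24 for UBQ10. The ratios of SPX1 and SPX2, that of 1.20 for SQD1 and that of 1.08 for PS2 lie inside that range. By ratio alone PHT1;1, MGD3 and SQD2 lie below it, at 0.934, 0.935 and 0.938, and PHT1;4, SPX3 and PAP17 lie above it. The counting intervals of PHT1;1, MGD3, SQD2 and SPX3 reach into the range, and those of PHT1;4 and PAP17 do not. The range was drawn after values were seen and is no test. SPX3 (AT2G45130, chr2:18606410-18607853, plus strand, 3 exons), whose transcript is strongly raised by phosphate starvation, had 0.182 RPKM in WT and 0.240 RPKM in jmj17-1. That level stood for 9 and 10 reads on a feature of 916 bases, and the interval of its ratio, 0.482 to 3.67, leaves a difference undetectable at this depth. SPX4, a family member whose transcript is not known to be raised by starvation, had 4.87 RPKM in WT and 3.77 RPKM in jmj17-1, a ratio of 0.774 with an interval of 0.655 to 0.917. Of the 4 SPX genes it was the one with a log2 ratio below 0.

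PS2 encodes a pyrophosphatase of the haloacid dehalogenase family, also called PPsPase1. PS2 (AT1G73010, chr1:27464528-27466348, minus strand, 4 exons) had 1.76 RPKM in WT and 1.90 RPKM in jmj17-1, from 111 and 101 reads. The ratio of 1.08 had an interval of 0.817 to 1.43 that included 1. Its close relative PECP1, a phosphatase of phosphoethanolamine and phosphocholine with a transcript 80.0% identical over 766 bases, stood at 1.29 and 1.23 RPKM. These genes were low in both libraries, with 34.7% of features below PS2 in WT and 31.5% below PECP1.

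MGD3, SQD1 and SQD2 make the membrane lipids that hold no phosphorus. MGD3 (AT2G11810, chr2:4743162-4746813, plus strand, up to 8 exons), a type B monogalactosyldiacylglycerol synthase, had 1.25 RPKM in WT and 1.17 RPKM in jmj17-1, from 113 and 89 reads. Its ratio of 0.935 had an interval of 0.70 to 1.25, and the libraries could not be told apart at this depth. SQD1 (AT4G33030, chr4:15935373-15937833, plus strand, 3 exons), which makes the sulfoquinovose head group, had 46.1 RPKM in WT and 55.4 RPKM in jmj17-1, from 4704 and 4760 reads. SQD2 (AT5G01220, chr5:86543-90117, minus strand, up to 12 exons), which joins that head group to the lipid, had 27.2 RPKM in WT and 25.6 RPKM in jmj17-1, from 3036 and 2400 reads. The successive enzymes of sulfolipid synthesis therefore lay on either side of 1. The ratio was 1.20 for SQD1 with an interval of 1.15 to 1.25, and 0.938 for SQD2 with an interval of 0.889 to 0.990. UGP3, which supplies the UDP-glucose used by SQD1 in the plastid, had 38.1 RPKM in WT and 32.9 RPKM in jmj17-1.

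Other galactolipid genes showed how MGD3 compares with its family. MGD1, the main monogalactosyldiacylglycerol synthase of green plastids, had 46.3 RPKM in WT and 44.2 RPKM in jmj17-1. MGD2, the other type B enzyme and 75.9% identical to MGD3 over 888 bases, stood at 2.81 and 1.87 RPKM, a ratio of 0.665 with an interval of 0.542 to 0.814. The digalactosyldiacylglycerol synthase genes stood at 12.3 and 11.99 RPKM for DGD1 and at 5.58 and 6.37 for DGD2. Of the 5 genes of galactolipid synthesis, 4 had a log2 ratio below 0, while 60.5% of all features lay above 0. Of those 4, MGD3 and DGD1 had ratio intervals that included 1, and the interval of MGD1 ended at 0.994. None of the 5 passed the 1.5-fold rule once 1 RPKM was added, which MGD2 passes on its plain ratio.

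The order of levels was nearly the same in both libraries. From the highest down, it ran PHT1;1, SQD1, SQD2, SPX1, SPX2, PHT1;4, PAP17, PS2, MGD3 and SPX3 in WT. Intervals overlapped there between PHT1;1 and SQD1 and between PS2 and MGD3, so these neighbours were not separated beyond counting error. In jmj17-1 SQD1 was above PHT1;1, and PAP17 came next after SPX1, where it overlapped SPX2, which in turn overlapped PHT1;4. PS2, MGD3 and SPX3 were the lowest in both libraries, and these 3 genes lay below 50% of all features in each.

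**Figure D3:**
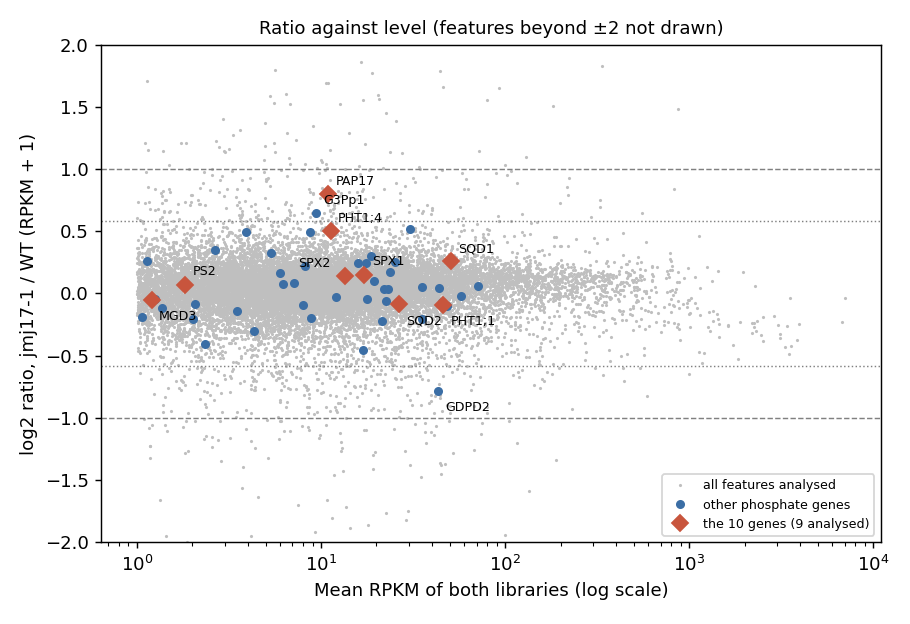
Log2 ratio of jmj17-1 over WT after adding 1 RPKM, against the mean RPKM of both libraries on a log axis, for the 18969 features analysed (grey), 42 other phosphate genes (blue) and 9 of the 10 genes (red). The 26 features beyond 2 on either side are not drawn. PAP17 and G3Pp1 lie above the 1.5-fold line and GDPD2 lies below it.

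A wider list of 55 genes of phosphate uptake, signalling, recycling and lipid exchange was measured beside the 10. Of these 52 were in the table and 42 reached a mean of 1 RPKM. Among the 42, 22 lay above 0 and 20 below, beside 60.5% of all features above 0. Their median log2 ratio was 0.04, equal to that of all features at this rounding. G3Pp1, a glycerol-3-phosphate permease family gene raised by phosphate starvation, was the only one at least 1.5-fold higher on the log2(RPKM + 1) scale, at 7.12 RPKM in WT and 11.7 in jmj17-1. Its plain ratio was 1.65 with an interval of 1.499 to 1.81, from 774 and 1073 reads. GDPD2, a glycerophosphodiester phosphodiesterase, was the only one at least 1.5-fold lower on that scale, at 54.7 RPKM in WT and 31.4 in jmj17-1. Its plain ratio was 0.574 with an interval of 0.545 to 0.604, from 4596 and 2222 reads. PAP1 at a plain ratio of 1.54 and MGD2 at 0.665 were past 1.5-fold without the added 1 RPKM. Among the 42, the counts of 1 higher and 1 lower lie near the background of 1.51% and 1.93% of all features.

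Regulators of the response lay on both sides of a ratio of 1. PHR1 had 22.8 RPKM in WT and 23.4 RPKM in jmj17-1, a ratio of 1.03 with an interval of 0.964 to 1.09. PHO2, the ubiquitin-conjugating enzyme that lowers phosphate transporters, stood at 23.0 and 22.0 RPKM, a ratio of 0.956. VIH2, an inositol pyrophosphate kinase and the most abundant of the regulators, stood at 50.03 and 46.5 RPKM. Of 14 regulator genes 9 lay above 0 and 5 below, near the 60.5% of all features above 0. None of the 14 passed 1.5-fold on the log2(RPKM + 1) scale. The following were named after their values were seen. WRKY6, a transcription factor that represses PHO1, stood at 7.02 and 10.3 RPKM, a ratio of 1.47 with an interval of 1.33 to 1.62. LPR1, a ferroxidase of root growth under low phosphate, had a ratio of 1.40 with an interval of 1.18 to 1.66. HRS1, a transcription factor, had a ratio of 1.24 with an interval of 1.15 to 1.35. NLA, a ubiquitin ligase that lowers phosphate transporters, had a ratio of 0.859 with an interval of 0.770 to 0.960. The noncoding RNA IPS1, which sequesters the microRNA miR399 during starvation, had 2.17 RPKM in WT and 1.98 RPKM in jmj17-1, from 74 and 57 reads. Its family member AT4 stood at 34.6 and 35.9 RPKM, a ratio of 1.04.

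Genes of phosphate export, storage and recycling spread to both sides. PHO1, which loads phosphate into the xylem, had 23.2 RPKM in WT and 19.8 RPKM in jmj17-1, a ratio of 0.852 with an interval of 0.809 to 0.897. PHT2;1, the plastid transporter and the most abundant of its class, stood at 58.2 and 57.3 RPKM. PHO1;H1, a relative of PHO1, had a ratio of 1.31 with an interval of 1.19 to 1.44, and PHT5;1, a vacuolar phosphate transporter, had a ratio of 1.20 with an interval of 1.13 to 1.26, both named after their values were seen. With G3Pp1, 3 of these 5 export and storage genes lay above 0, near the 60.5% of all features that did. Their median log2 ratio was 0.24. RNS2, a ribonuclease that recycles RNA, stood at 43.3 and 44.6 RPKM. Of 7 phospholipid breakdown genes analysed 6 had a log2 ratio below 0, with a median of -0.11, while 60.5% of all features lay above 0. Their summed level was 109 RPKM in WT and 79.2 in jmj17-1, and GDPD2 made up most of that difference. Of those below 0, PLDZ2, NPC4 and PAH2 had ratio intervals that included 1, and the interval of PLDZ1 ended at 0.9995. GDPD1, named after its value was seen, stood at 19.7 and 14.2 RPKM, but shares 681 exon bases with AT3G02030 on the other strand, so its value is uncertain.

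**Figure D4:**
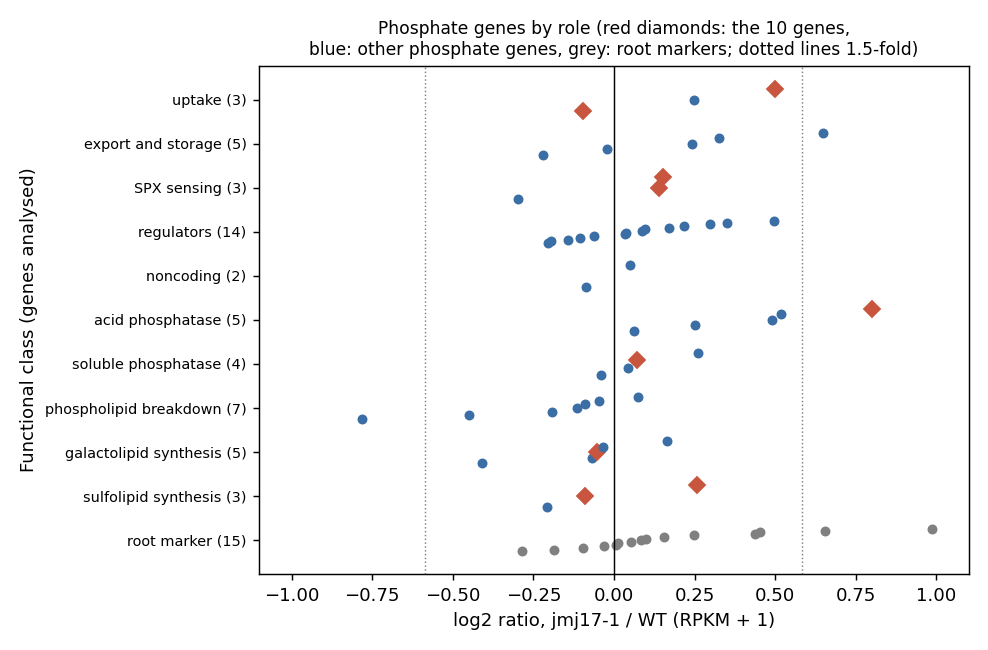
Log2 ratio of jmj17-1 over WT after adding 1 RPKM for each analysed gene, grouped by role, with the 10 genes as red diamonds, other phosphate genes in blue and root markers in grey; dotted lines mark 1.5-fold. All 5 analysed acid phosphatase genes lie to the right of 0, as do 60.5% of all features. PAP14, PAP22, PAP24 and PAP25, below a mean of 1 RPKM, are not drawn and were lower in jmj17-1. Of 7 phospholipid breakdown genes 6 lie to the left. Of those on the left, PLDZ2, NPC4 and PAH2 have ratio intervals that include 1.

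Root transcripts were checked because phosphate uptake genes act mainly in roots and whole seedlings mix organs. All 15 root markers were detected in both libraries, with a summed level of 136 RPKM in WT and 142 in jmj17-1. Of these 11 lay above 0 and 4 below, beside 60.5% of all features above 0, and the median log2 ratio was 0.08. PRP1 at 1.87 and 4.69 RPKM and WOX5 at 0.943 and 2.06 were at least 1.5-fold higher on the log2(RPKM + 1) scale, as were 1.51% of all features, and the other 13 were not. In a whole-seedling library more cells of a type and more RNA per cell cannot be told apart, and the part of root content in the PAP17 and PHT1;4 values was not tested. A single shoot gene was looked at, RBCS1A, with 7138 RPKM in WT and 6948 RPKM in jmj17-1. It does not stand for other shoot transcripts, and shoot content was not tested.

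PAP17 and PHT1;4, which had the highest ratios of the 10, had no P1BS match. SPX3, next by plain ratio at 1.32 but from only 9 and 10 reads, had matches. With a match, the log2 ratio was -0.10 for PHT1;1, 0.15 for SPX1, 0.07 for SPX3, 0.07 for PS2 and -0.09 for SQD2. Without a match it was 0.50 for PHT1;4, 0.80 for PAP17, 0.14 for SPX2, -0.05 for MGD3 and 0.26 for SQD1. This split was drawn after the values were known and is a description with no test. In the wider list, the median log2 ratio was -0.04 over 21 analysed genes with a match and 0.16 over 21 without one. That list was also chosen with earlier results known, so it is no independent check. The same split was not made over all features, and a link between motif and ratio was not tested.

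**Figure D5:**
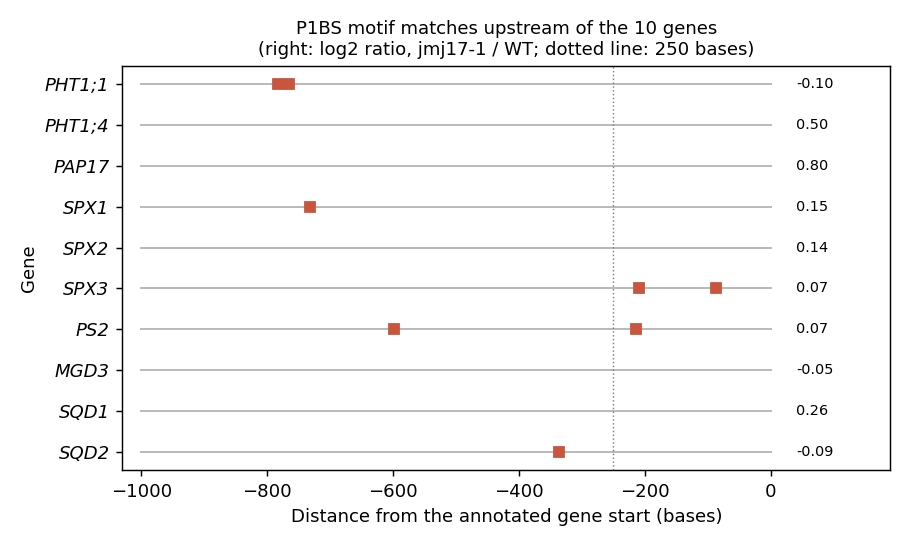
Positions of GNATATNC in the 1000 bases before the annotated start of each of the 10 genes, as red squares on a scale of bases, with the log2 ratio of jmj17-1 over WT at the right. PAP17 and PHT1;4, which have the highest ratios, show no match in this window, and SPX3 and PS2 show a match within 250 bases (dotted line).

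The authors' deposited table of genes at a p of 0.05 held none of the 10. In the authors' deposited table of all features, their p-values ran from 0.168 for PAP17 to 0.958 for MGD3, unadjusted. Of the wider list GDPD2 alone was in the authors' deposited table of genes at a p of 0.05, with a p of 0.012. The authors' deposited table with the stricter title of p 0.01 listed it too, although its p lies above that. These p-values rest on 1 library of each genotype and so take no account of the spread between seedlings.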

How the data were processed

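RNA from 1 WT and 1 jmj17-1 library was measured. Libraries were made with a TruSeq kit, per the labels' protocols, and TAIR10 is the build listed in the submitters' processing notes. The aligner, counter, strand use and feature lengths are not stated in these sources. The authors deposited RPKM per feature with a Z score and a p-value for each, and lists named for 2 p-values. Each library column was assigned by its title, and 0 columns were left unassigned.

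Ratios of RPKM between the libraries were reduced to ratios of whole numbers up to 30000 within a relative 2e-14, and the largest common factor of reads over RPKM gave the library reads and feature lengths. Of 24815 features above 0 in both libraries 75.0% resolved. Where several lengths were possible, the one nearest the RefSeq transcript was taken. Folds beside RPKM are plain ratios. Intervals are exact Clopper-Pearson for ratios and Poisson for levels, at 95%, and are approximate where the reads are. Log2 ratios add 1 RPKM, and features with a mean of at least 1 RPKM were analysed against rules of 1.5-fold and 2-fold. With 1 library per genotype no test was run. Motifs and transcripts came from the RefSeq annotation of TAIR10.1, with BLAST+ 2.17.0 for similarity, and no coordinates were taken from the authors' files. Scripts ran in Python 3.11.15 with SciPy 1.17.1 and were tested on simulated data.

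The 10 genes and the wider lists were chosen with earlier results of these data known. Genes named beside the 10 were those past 1.5-fold on the log2(RPKM + 1) scale, the most abundant of each class, and close relatives and pathway genes listed by name, among them PHR1, PHO1, PHO2 and IPS1. PAP1, GDPD1, WRKY6, LPR1, HRS1, NLA, PHO1;H1, PHT5;1, the reference genes and root markers named and the P1BS split were picked after values were seen. So were PLDZ1, PLDZ2, NPC4 and PAH2. RBCS1A was a check gene outside these lists.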

Additional observations from a re-analysis of the deposited data

How the results depend on the processing

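PAP17 stayed the only one of the 10 genes past 1.5-fold, and none passed 2-fold, under every pseudocount, filter and scaling tried. Of 51 recomputed log2 ratios of the 10 genes, 49 stayed inside their counting interval, none changed sign, and 2 fell below it with a pseudocount of 5 RPKM, which lowers ratios by construction, PAP17 at 0.59 and PHT1;4 at 0.38. The median of those of the 10 genes that passed the filter ranged from 0.097 to 0.15. It covered 9 genes in most settings, 7 at a mean of at least 5 RPKM and all 10 without a filter. The median of the wider list was 0.036, and turned to -0.019 without a filter, -0.0061 with the median of all features set to 0 and -0.0023 under quantile normalization. With a pseudocount of 0.1 RPKM the wider list had 2 genes at least 1.5-fold higher. Of all features 142 passed 2-fold upward and 159 downward, and 442 passed 1.5-fold upward and 508 downward. In the main setting these counts were 74, 110, 287 and 366. With 5 RPKM the wider list had 0 at least 1.5-fold higher, and of all features 25 passed 2-fold upward and 49 downward, and 121 passed 1.5-fold upward and 185 downward. With a mean of at least 5 RPKM, which tests fewer features, 53 passed 2-fold upward and 71 downward. In that setting 184 passed 1.5-fold upward and 255 downward. No paired analysis was possible because each genotype has 1 library. Depth limits SPX3, MGD3 and PS2, whose intervals include a ratio of 1.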
